A study of Arabidopsis thaliana with 18 samples.

Results

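Phytochrome-interacting factors (PIFs) and the shade-responsive genes they drive were followed in Arabidopsis seedlings passing from dark into light. The set was defined as 8 loci, PIF3, PIF4, PIF5, PIL1, HFR1, ATHB2, IAA19 and IAA29. Each was looked up by its locus number in a deposited table of 6847 probe sets. PIF3 (AT1G09530), PIF5 (AT3G59060, also called PIL6), HFR1 (AT1G02340), ATHB2 (AT4G16780), IAA19 (AT3G15540) and IAA29 (AT4G32280) had 1 probe set each there, so 6 of the 8 loci could be followed. PIF4 (AT2G43010) and PIL1 (AT2G46970) had no row of their own in that table and are not analysed here. The table is a selected part of the array, as described below, so a missing row does not mean a missing probe set. The seedlings were of the mutant jmj17-1 and of wild type, both in the Col-0 background. JMJ17 encodes a histone H3K4 demethylase, and the labels say nothing further of the allele. Both genotypes were kept on 1/2MS medium lacking sucrose for 4 days in the dark. They were taken then, or after a further 2, 4 or 8 h of light. RNA came from whole seedlings and was hybridised to ATH1 arrays, with 3 arrays in each dark group and 2 arrays in each of the 6 light groups. JMJ17 itself had no row in the table, so the mutation was not checked at its own transcript.

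PIFs are basic helix-loop-helix (bHLH) transcription factors that keep dark-grown seedlings etiolated, with long hypocotyls and closed cotyledons. In light, active phytochrome binds them and they are phosphorylated and degraded, while low red to far-red light in canopy shade lets them accumulate again. Their direct targets in shade include genes that feed auxin-driven elongation, and atypical bHLH proteins such as HFR1 that bind PIFs and hold them off DNA. The control of PIF activity is thus largely one of protein, which arrays do not measure.

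Values are log2 of the deposited intensity, and a difference passed when its adjusted p was under 0.05 (limma, Benjamini-Hochberg over all 6847 probe sets). The table is a selected part of the array's 22810 probe sets. Each probe set kept had an unadjusted p of at most 0.0261 in jmj17-1 at 2 h against dark, fitted on those 5 arrays, so values of that contrast are given as description only. The jmj17-1 dark and 2 h arrays also enter the genotype comparisons, the other jmj17-1 light comparisons and the interactions, whose p-values are therefore not independent of the selection. Below, all probe sets means the 6847 of this table. A second deposited table of all 22810 probe sets holds the same arrays, and 16 of its 18 columns carry the label of another group or replicate than the equal column of the first. Which labelling is right is not settled by the sources used here, so every group value below rests on the titles in the first table. Under those titles the wild-type dark arrays held ATHB2 at 9.15, 9.16 and 9.35 (log2 intensity). The arrays that the second table labels as wild-type dark held it at 9.15, 6.15 and 5.87. Median intensity ran from 144 to 161 over the 18 arrays. Nothing in the labels tells separate plantings from repeat samples, so a p-value here reflects the spread among these arrays alone, which may be technical. In whole seedlings a smaller share of expressing cells and less RNA per cell cannot be told apart. Of the green shoot markers 4 of 8 had a row of their own in this selected table. Their summed intensity was 3586 to 7535 in dark arrays and 11883 or more in every light array. Under the titles of the first table the dark and light arrays thus did not overlap in this sum, which says nothing of the genotype labels. Each marker kept had differed between jmj17-1 dark and 2 h under the selection. The separation was thus largely built in for those groups and is no independent check of the titles. The part of these genes in the light responses was not tested. Of the root markers only RHD2 of 8 had one, at an intensity of 35.9 to 45.9 in the dark and 17.2 to 20.7 at 8 h. It fell in wild type at 4 and 8 h and did not pass at 2 h, and its part in the results below was not tested either.

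In wild type the shade targets ATHB2, IAA29 and IAA19 kept 6.84, 6.65 and 5.94 percent of their dark intensity at 8 h of light. HFR1 kept 67.4 percent, and the transcripts of PIF3 and PIF5 were both higher at 2 h than in the dark. All 6 genes passed at 2 h, where 89.5 percent of all probe sets did. Of these, 2 were higher (40.5 percent of all probe sets) and 4 lower (49 percent). At 4 h all 6 passed again, against 71.5 percent of all probe sets, 1 of them higher (31.3 percent) and 5 lower (40.1 percent). At 8 h 4 passed, against 80.3 percent, all lower (48.6 percent). Passing was thus common throughout this selected table. Over the array's 22810 probe sets the shares in the same 3 comparisons were lower, at 37.4, 34.6 and 45.4 percent. The median of the 6 genes was -1.39 at 2 h, -0.95 at 4 h and -2.22 at 8 h on the log2 scale. The median over all probe sets was -0.21, -0.10 and -0.20 at those times.

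**Figure D1:**
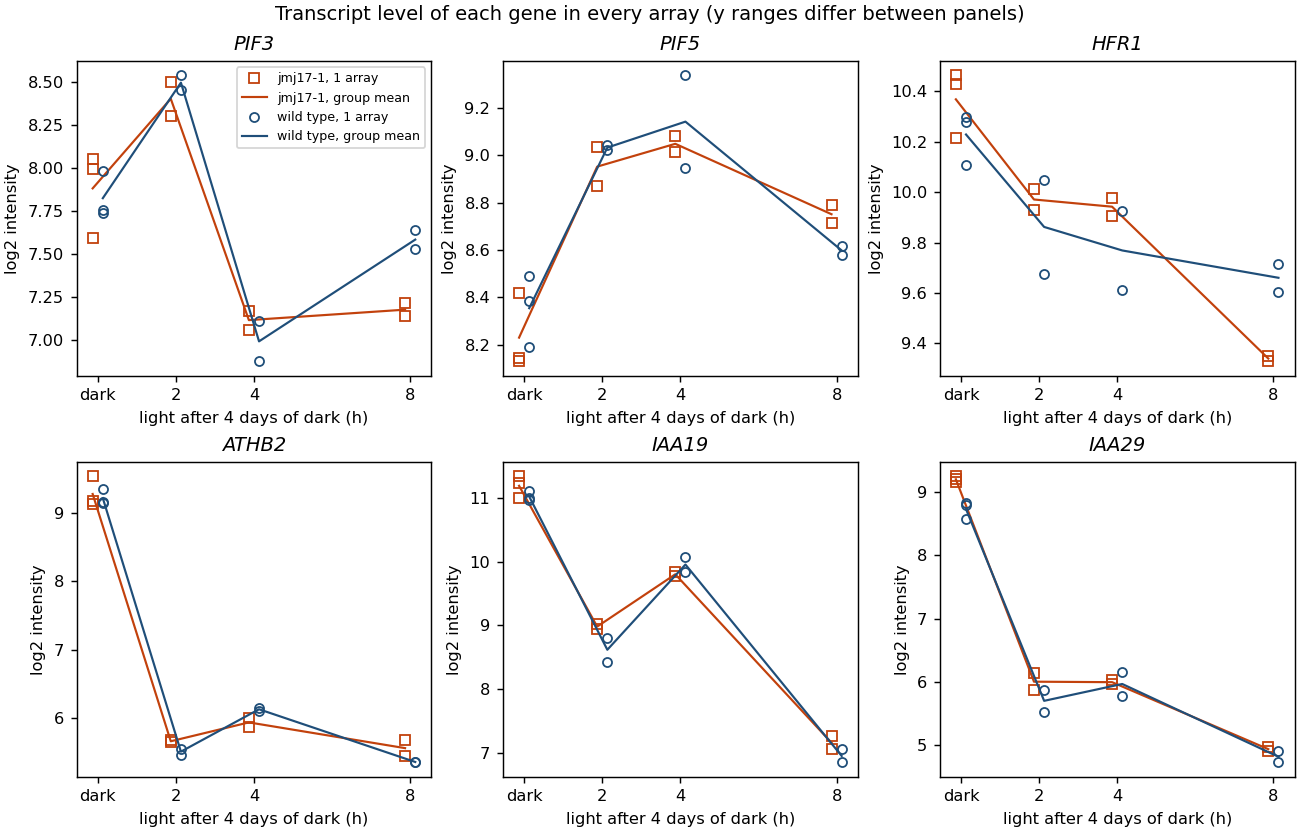
Log2 intensity of PIF3, PIF5, HFR1, ATHB2, IAA19 and IAA29 (y axis, with a range of its own in each panel) in the dark and at 2, 4 and 8 h of light (x axis). Squares are single jmj17-1 arrays, circles single wild-type arrays, and lines join group means. ATHB2, IAA19 and IAA29 drop steeply by 2 h in both genotypes, IAA19 partly recovers at 4 h, and PIF3 peaks at 2 h.

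PIF3, a founding PIF that binds phytochromes A and B, peaked at 2 h and was lowest at 4 h in wild type. In the dark its log2 intensity was 8.00, 8.05 and 7.59 in jmj17-1 and 7.98, 7.74 and 7.75 in wild type. At 2 h it was 8.50 and 8.30 in jmj17-1 and 8.54 and 8.45 in wild type. At 4 h it was 7.17 and 7.06 in jmj17-1 and 6.88 and 7.11 in wild type. Every 2 h array lay above every dark array of its genotype, and every 4 h array lay below. At 8 h PIF3 stood at 7.22 and 7.14 in jmj17-1 and at 7.64 and 7.53 in wild type, and here the 2 genotypes did not overlap. Against dark, the wild type rose by 0.67 ± 0.13 at 2 h (SE, adjusted p 0.000183, limma) and fell by 0.83 ± 0.13 at 4 h (adjusted p 3.5e-05). At 8 h the difference of -0.24 ± 0.13 did not pass (adjusted p 0.0943). Between 2 and 4 h PIF3 fell by 1.50 ± 0.14 (adjusted p 6.25e-07), a fall larger in size than the change of 97.1 percent of probe sets, and between 4 and 8 h it rose by 0.59 ± 0.14 (adjusted p 0.00375).

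PIF5, a bHLH factor that acts with PIF4 in elongation growth and shade, stood above its dark mean at every light time. In the dark it measured 8.42, 8.13 and 8.14 in jmj17-1 and 8.19, 8.49 and 8.38 in wild type. At 2 h it measured 8.87 and 9.03 in jmj17-1 and 9.02 and 9.04 in wild type. At 4 h it measured 9.08 and 9.01 in jmj17-1 and 8.95 and 9.34 in wild type. All light arrays up to 4 h lay above all dark arrays, with the wild-type 4 h pair the widest apart. At 8 h PIF5 was at 8.71 and 8.79 in jmj17-1 and at 8.58 and 8.62 in wild type. In wild type it rose by 0.68 ± 0.12 at 2 h (adjusted p 9.86e-05, limma) and by 0.79 ± 0.12 at 4 h (adjusted p 3.38e-05), and stood 0.24 ± 0.12 above dark at 8 h without passing (adjusted p 0.0745). The drop from 4 to 8 h, -0.54 ± 0.13 (adjusted p 0.00438), rested on wild-type 4 h replicate 2, without which it was -0.35 and did not pass (adjusted p 0.0681).

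HFR1 encodes the atypical bHLH protein that binds PIFs and promotes de-etiolation. Its transcript fell less than those of ATHB2, IAA19 and IAA29. At 2 h wild type had 64.5 percent of its log2 change from dark to 8 h, and jmj17-1 38.6 percent. The 2 h changes themselves were -0.37 in wild type and -0.40 in jmj17-1, so these shares differ mainly through the 8 h change. The interaction at 8 h did not pass (adjusted p 0.147, limma). Dark values were 10.46, 10.21 and 10.43 in jmj17-1 and 10.28, 10.30 and 10.11 in wild type, and 2 h values were 9.93 and 10.01 in jmj17-1 and 9.67 and 10.05 in wild type. At 4 h they were 9.98 and 9.91 in jmj17-1 and 9.92 and 9.61 in wild type, and at 8 h 9.33 and 9.35 in jmj17-1 and 9.61 and 9.72 in wild type. Light arrays lay below dark arrays throughout, while the wild-type pairs at 2 and 4 h were wide. Wild type fell by 0.37 ± 0.12 at 2 h (adjusted p 0.00949, limma), by 0.46 ± 0.12 at 4 h (adjusted p 0.00294) and by 0.57 ± 0.12 at 8 h (adjusted p 0.000441). The 2 h value was -0.18 without wild-type 2 h replicate 1 (adjusted p 0.211) and -0.55 without replicate 2 (adjusted p 0.0016). The 4 h value was -0.30 without wild-type 4 h replicate 2 (adjusted p 0.0689). Neither the step from 2 to 4 h nor that from 4 to 8 h passed in wild type.

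ATHB2, a homeodomain-leucine zipper class II (HD-ZIP II) factor that promotes elongation in shade, fell steeply at once. In the dark its log2 intensity was 9.18, 9.13 and 9.54 in jmj17-1 and 9.15, 9.16 and 9.35 in wild type. At 2 h it was 5.64 and 5.67 in jmj17-1 and 5.55 and 5.46 in wild type. No light array came near a dark array, and the fall in wild type at 2 h, -3.72 ± 0.11 (adjusted p 1.79e-12, limma), ranked 2 of 6847 from the lowest. By 2 h wild type had covered 96.1 percent of its log2 change from dark to 8 h, and 7.60 percent of the dark intensity was left. Only 17.6 percent of probe sets at 2 h and 17.7 percent at 8 h had a dimmer group mean in wild type. The part of array background in these shares was not tested. At 4 h values were 5.87 and 6.0 in jmj17-1 and 6.15 and 6.10 in wild type, and at 8 h 5.44 and 5.67 in jmj17-1 and 5.35 and 5.36 in wild type. The wild type thus recovered slightly at 4 h, by 0.62 ± 0.12 over 2 h (adjusted p 0.00075), and then fell by 0.77 ± 0.12 to 8 h (adjusted p 0.000208). Against dark its log2 difference was -3.10 ± 0.11 at 4 h (adjusted p 1.64e-11) and -3.87 ± 0.11 at 8 h (adjusted p 6.63e-13).

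IAA19 encodes an Aux/IAA protein, a short-lived repressor of auxin-response factors that auxin itself induces. It fell by 2 h, partly returned at 4 h and fell further by 8 h. Dark values were 10.99, 11.24 and 11.34 in jmj17-1 and 11.10, 10.99 and 10.96 in wild type, and 2 h values were 9.02 and 8.94 in jmj17-1 and 8.43 and 8.80 in wild type. At 4 h it measured 9.83 and 9.77 in jmj17-1 and 9.84 and 10.07 in wild type. At 8 h it measured 7.26 and 7.05 in jmj17-1 and 7.05 and 6.85 in wild type. Every 4 h array lay between the 2 h and the dark arrays of its genotype, and every 8 h array lay below all others. Against dark the wild type stood at -2.41 ± 0.13 at 2 h (adjusted p 2.55e-10, limma), -1.07 ± 0.13 at 4 h (adjusted p 2.42e-06) and -4.07 ± 0.13 at 8 h (adjusted p 9.33e-13). On the linear scale 18.9, 47.7 and 5.94 percent of the dark intensity was left at 2, 4 and 8 h. The rise from 2 to 4 h was 1.34 ± 0.14 (adjusted p 1.69e-06), and the drop from 4 to 8 h, -3.01 ± 0.14 (adjusted p 1.31e-09), ranked 4 of 6847 from the lowest.

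IAA29, another Aux/IAA gene and a well-known PIF target, fell by 2 h and again between 4 and 8 h. In the dark it measured 9.20, 9.15 and 9.24 in jmj17-1 and 8.79, 8.82 and 8.56 in wild type, 2 sets that did not overlap. At 2 h it measured 5.87 and 6.14 in jmj17-1 and 5.52 and 5.88 in wild type. At 4 h it measured 6.03 and 5.96 in jmj17-1 and 5.78 and 6.15 in wild type. The genotypes overlapped at both of these times. At 8 h IAA29 reached 4.97 and 4.90 in jmj17-1 and 4.91 and 4.73 in wild type, where only 13.1 percent of probe sets in jmj17-1 and 11.6 percent in wild type had a dimmer group mean. Against dark the wild type stood at -3.03 ± 0.13 at 2 h (adjusted p 3.24e-11, limma; rank 8 of 6847 from the lowest), -2.76 ± 0.13 at 4 h (adjusted p 2.03e-10) and -3.91 ± 0.13 at 8 h (adjusted p 1.51e-12). Its step from 2 to 4 h, 0.27 ± 0.14, did not pass (adjusted p 0.136), and that from 4 to 8 h was -1.15 ± 0.14 (adjusted p 1.95e-05).

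Between neighbouring light times, 3 of the 6 genes passed from 2 to 4 h in wild type, against 47.2 percent of all probe sets. ATHB2 and IAA19 were higher (20.4 percent of all probe sets) and PIF3 lower (26.8 percent). From 4 to 8 h 5 of the 6 passed, against 39.7 percent, PIF3 higher (17.3 percent) and PIF5, ATHB2, IAA19 and IAA29 lower (22.4 percent). Over these steps in wild type PIF3 therefore moved opposite to ATHB2, IAA19 and IAA29 wherever both passed. HFR1 passed in neither step, and at 4 h against dark PIF3 and all of these targets were lower. As a description over the 8 group means, which share arrays and normalization, Pearson's r was 0.98 between ATHB2 and IAA29, 0.89 between IAA19 and IAA29 and 0.90 between HFR1 and IAA29. It was lower, at 0.80, between HFR1 and ATHB2 and 0.81 between ATHB2 and IAA19. With these targets PIF3 had r from 0.06 (IAA19) to 0.41 (HFR1), and PIF5 from -0.79 (ATHB2) to -0.30 (IAA19).

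In jmj17-1 the targets ATHB2, IAA19 and IAA29 likewise stood at a small share of their dark level by 8 h. At 2 h against dark the log2 differences, a description because the table was selected on them, were 0.52 for PIF3, 0.72 for PIF5, -0.40 for HFR1, -3.63 for ATHB2, -2.21 for IAA19 and -3.19 for IAA29, and 99.8 percent of the table passed. At 4 h all 6 genes passed, against 76.3 percent of the table, with PIF5 higher (31.9 percent) and 5 lower (44.4 percent). At 8 h all 6 passed again, against 78.9 percent, with PIF5 higher (31.1 percent) and 5 lower (47.7 percent). PIF5 was then still 0.52 ± 0.12 above dark (adjusted p 0.00103, limma) and PIF3 -0.70 ± 0.13 below it (adjusted p 0.000124), the 2 genes that did not pass at 8 h in wild type. HFR1 was -1.03 ± 0.12 (adjusted p 1.27e-06), ATHB2 -3.73 ± 0.11, IAA19 -4.03 ± 0.13 and IAA29 -4.26 ± 0.13, which left 49.0, 7.55, 6.10 and 5.22 percent of their dark intensity. That a gene passed in 1 genotype and not in the other shows no difference between them, which the interaction tests below address.

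Between light times in jmj17-1, 2 genes passed from 2 to 4 h, against 44.2 percent of the table. PIF3 fell by 1.29 ± 0.14 (adjusted p 3.68e-06, limma), where 23.5 percent of the table was lower. IAA19 rose by 0.82 ± 0.14 (adjusted p 0.000194), where 20.6 percent was higher. From 4 to 8 h 4 genes passed, against 34.8 percent of the table, all of them lower (20 percent). They were HFR1 at -0.60 ± 0.13 (adjusted p 0.00258), IAA19 at -2.64 ± 0.14 (adjusted p 2.08e-08), IAA29 at -1.06 ± 0.14 (adjusted p 6.09e-05) and ATHB2 at -0.38 ± 0.12 (adjusted p 0.0288). The ATHB2 step did not pass when arrays were quantile-normalized again (-0.28, adjusted p 0.0969), without jmj17-1 4 h replicate 1 (-0.44, adjusted p 0.0593) or replicate 2 (-0.31, adjusted p 0.179), or without jmj17-1 8 h replicate 1 (-0.26, adjusted p 0.225). PIF3, at 0.06 ± 0.14, showed no rise from 4 to 8 h that passed in jmj17-1 (adjusted p 0.769).

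At no single time did a difference between the genotypes pass in these genes. The share of all probe sets that passed (limma) was 1.8 percent for seedlings kept in the dark, 5.27 percent after 2 h of light, 2.72 percent after 4 h and 1.27 percent after 8 h. Over the array's 22810 probe sets these shares were 0.456, 1.4, 0.614 and 0.403 percent. At an unadjusted p under 0.05 the dark comparison held 1 of the 6 genes (IAA29), that at 2 h 2 (IAA19 and IAA29), that at 4 h 0 and that at 8 h 2 (PIF3 and HFR1). In a limma fit of all 22810 probe sets, 21.9, 20.1, 15 and 14.6 percent of the 6847 reached that unadjusted p in these comparisons. The jmj17-1 and wild-type arrays did not overlap for 1 gene in darkness and for 2, 2 and 5 genes at the light times of 2, 4 and 8 h. Over all probe sets this held for 24, 53.6, 49.1 and 49.8 percent. With 2 arrays a group, separate groups were therefore common throughout the table.

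**Figure D2:**
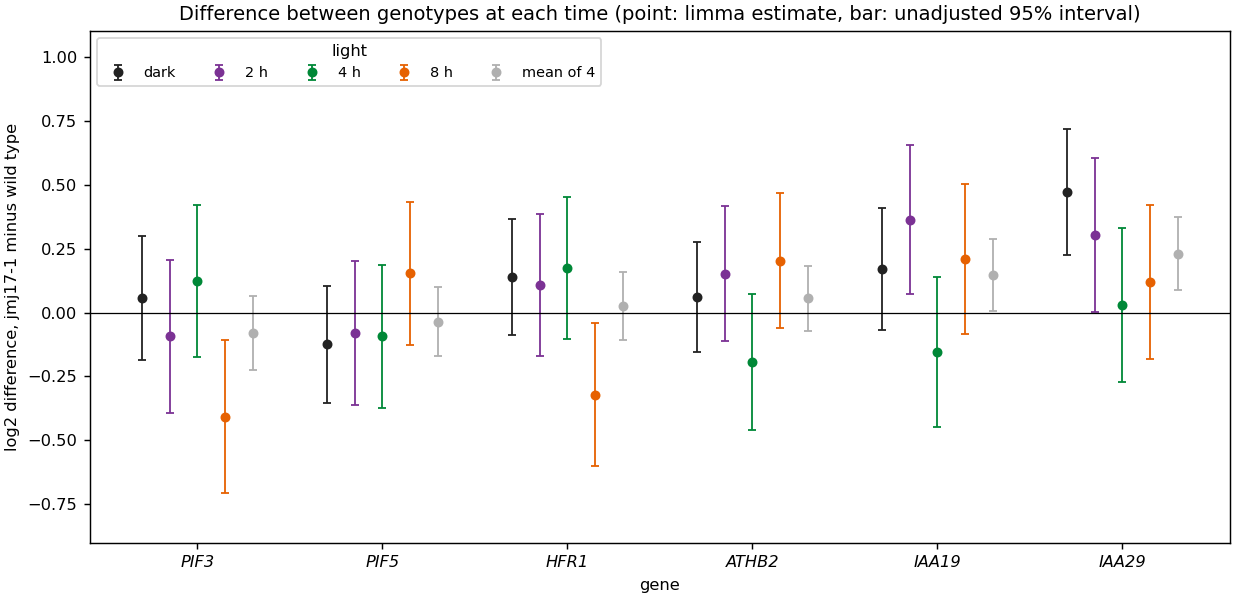
Log2 difference of jmj17-1 minus wild type (y axis) for each gene (x axis), by time and as the mean of all times. Points are limma estimates and bars unadjusted 95% intervals. Most intervals span 0. The dark interval of IAA29 (0.23 to 0.72), the 2 h intervals of IAA19 and IAA29 and the mean intervals of both lie above 0, and the 8 h intervals of PIF3 and HFR1 lie below it.

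IAA29 in the dark had the largest of these genotype differences. It was 0.47 ± 0.12 higher in jmj17-1 (95% interval 0.23 to 0.72), a fold of 1.39, with an adjusted p of 0.0521 (limma), just above the threshold. Its 3 jmj17-1 dark arrays (9.20, 9.15 and 9.24) all exceeded its 3 wild-type dark arrays (8.79, 8.82 and 8.56). In those arrays the summed intensity of the green shoot genes was 3883 to 7535 in jmj17-1 and 3586 to 4265 in wild type, and its part in the difference was not tested. IAA29 passed when any 1 of the 4 wild-type 2 h and 4 h arrays was left out, and the lowest adjusted p over all alternatives was 0.0378. The later differences were 0.30 ± 0.14 at 2 h (adjusted p 0.245), 0.03 ± 0.14 at 4 h (adjusted p 0.955) and 0.12 ± 0.14 at 8 h (adjusted p 0.767). Averaged over the 4 times IAA29 was the only 1 of the 6 genes to pass, at 0.23 ± 0.07 higher in jmj17-1 (95% interval 0.09 to 0.37, adjusted p 0.0461), where 8.76 percent of all probe sets passed and 2.96 percent were higher (2.75 percent passed over the array's 22810). That call was lost in 16 of the 24 alternatives that measured the gene, with values between 0.18 and 0.28 and adjusted p from 0.0173 to 0.128.

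IAA19 had the largest genotype difference of the 6 genes at 2 h. At 9.02 and 8.94 in jmj17-1 and 8.43 and 8.80 in wild type, it was 0.36 ± 0.14 higher in jmj17-1 (95% interval 0.07 to 0.66) and did not pass (adjusted p 0.142, limma). The wild-type pair was wide, and the value was 0.55 without wild-type 2 h replicate 2 (adjusted p 0.0488) and 0.18 without replicate 1. Averaged over the 4 times IAA19 differed by 0.15 ± 0.07 (adjusted p 0.192).

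PIF3 and HFR1 had their largest genotype differences at 8 h, and neither passed. PIF3 was at 7.22 and 7.14 in jmj17-1 and 7.64 and 7.53 in wild type, a difference of -0.41 ± 0.14 (95% interval -0.71 to -0.11, adjusted p 0.179, limma). HFR1 was at 9.33 and 9.35 in jmj17-1 and 9.61 and 9.72 in wild type, a difference of -0.32 ± 0.13 (95% interval -0.60 to -0.04, adjusted p 0.26). Both genotypes were separate at this time for both genes, as they were for 49.8 percent of the table. For ATHB2 and PIF5 no time gave an interval that excluded 0, and those that reached farthest ran from -0.06 to 0.47 for ATHB2 and from -0.13 to 0.43 for PIF5, both at 8 h. A p that misses the threshold does not show that the genotypes are alike, and these bounds are what 2 or 3 arrays a group leave room for.

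Whether the response to light itself differed between genotypes was tested by the interaction. None of the 6 genes passed (limma), and of all probe sets 0.102 percent did for the response after 2 h, 0.102 percent after 4 h and 1.14 percent after 8 h. Over the array's probe sets it was 0.00877, 0.0614 and 0.153 percent. At an unadjusted p under 0.05 there were 0 genes at 2 h, 1 at 4 h and 2 at 8 h. In a limma fit of the array's full set of probe sets, 13.9, 13 and 20.3 percent of this table reached that unadjusted p. The 1 at 4 h was IAA29, whose fall from dark was deeper in jmj17-1 by 0.44 ± 0.18 (interaction -0.44, adjusted p 0.321). This interaction shares its dark arrays with the dark difference given above. The 2 at 8 h were PIF3 at -0.46 ± 0.18 (adjusted p 0.17) and HFR1 at -0.46 ± 0.17 (adjusted p 0.147).

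A pair of further interactions between light times was added after the values were seen. From 2 to 4 h, where 0.102 percent of all probe sets passed, none of the 6 genes did in limma and 1 had an unadjusted p under 0.05. This was IAA19, whose rise was 0.82 in jmj17-1 and 1.34 in wild type, a difference of -0.52 ± 0.19 (adjusted p 0.424). From 4 to 8 h, where 2.18 percent passed, none of the 6 did and 3 had an unadjusted p under 0.05. These 3 were PIF3 at -0.53 ± 0.20 (adjusted p 0.18), HFR1 at -0.49 ± 0.18 (adjusted p 0.18) and ATHB2 at 0.40 ± 0.18 (adjusted p 0.269). Such unadjusted p-values were not rare in this table. In a limma fit of the array's full set of probe sets, 9.27 percent of it reached that level from 2 to 4 h. From 4 to 8 h 17 percent did. The PIF3 step from 4 to 8 h was 0.06 in jmj17-1 and 0.59 in wild type, and that of HFR1 was -0.60 in jmj17-1 and -0.11 in wild type.

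One dark array stood apart. Replicate 2 of jmj17-1 in the dark correlated with the other dark arrays of its genotype at no more than 0.985 over the 6847 probe sets, while replicates 1 and 3 correlated at 0.995. All 4 measured green shoot genes lay outside the range of the other 5 dark arrays in it. RCA (Rubisco activase), GLK2 (a chloroplast-development factor), LHCA6 (a photosystem I antenna protein) and PSAG (a photosystem I subunit) stood 44.3, 15.3, 62.8 and 75.5 percent of the way to the mean of the 4 arrays at 2 h. In the same array ATHB2 was 3.97 percent of the way, and IAA19 and IAA29 were at -7.11 and -7.33 percent, on the side away from the 2 h mean. HFR1 was 25.3 percent of the way, PIF3 37.9 and PIF5 -29.2. HFR1, IAA19 and IAA29 lay inside the range of the other dark arrays.

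**Figure D3:**
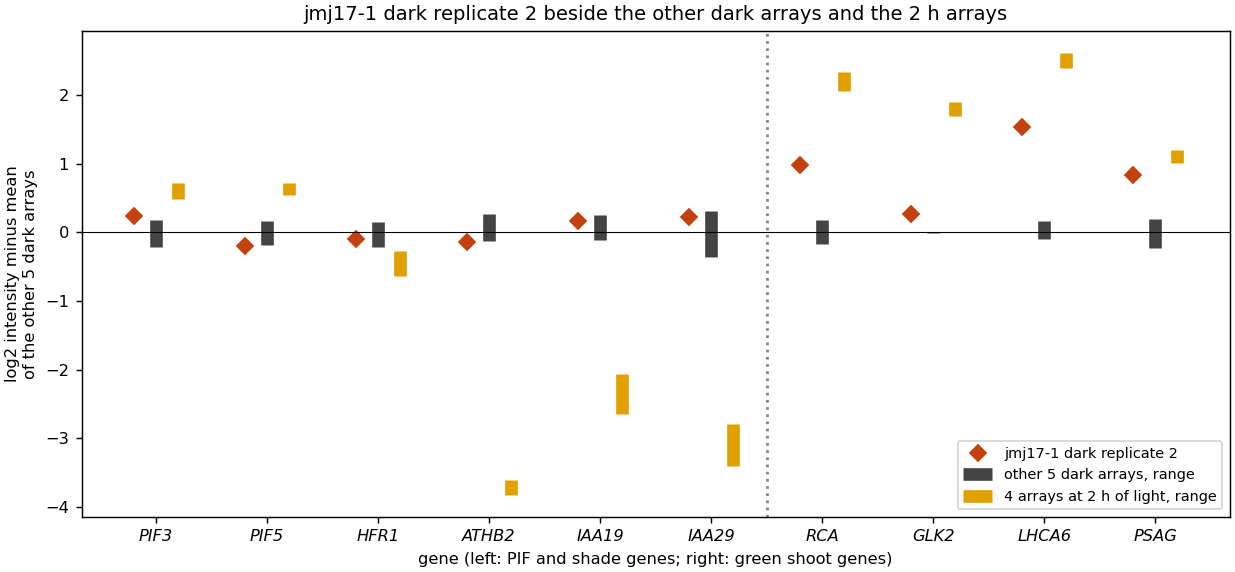
Log2 intensity relative to the mean of the other 5 dark arrays (y axis) for the 6 PIF and shade genes and 4 green shoot genes (x axis). Diamonds are jmj17-1 dark replicate 2, grey bars the range of the other 5 dark arrays and yellow bars the range of the 4 arrays at 2 h. The diamond is raised in all 4 green shoot genes and stays near the dark level in ATHB2, IAA19 and IAA29.

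Without that array no call among the 6 genes changed. All 6 still passed in jmj17-1 at 4 and 8 h against dark, none passed between genotypes at a single time or in an interaction, and IAA29 passed in the genotype average (0.24, adjusted p 0.0387, limma). The dark difference of IAA29 was then 0.49 with an adjusted p of 0.0945, and that of PIF3 was -0.03, against 0.06 with all arrays.

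Related genes were taken from 6 lists of 64 loci, of which 44 had a row of their own in the selected table. The count of genes lower in wild type at all 3 light times was 5 of 6 for HD-ZIP II relatives of ATHB2, 7 of 9 for other shade and elongation genes and 2 of 3 for HLH partners and antagonists. It was 5 of 9 for DELLA proteins and phytochromes, 1 of 4 for other PIF family and PIF-like bHLH genes and 2 of 13 for other AUX/IAA genes. Over all probe sets 33.2 percent were lower at all 3 times, a share that the other AUX/IAA list and the PIF-like list did not reach.

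**Figure D4:**
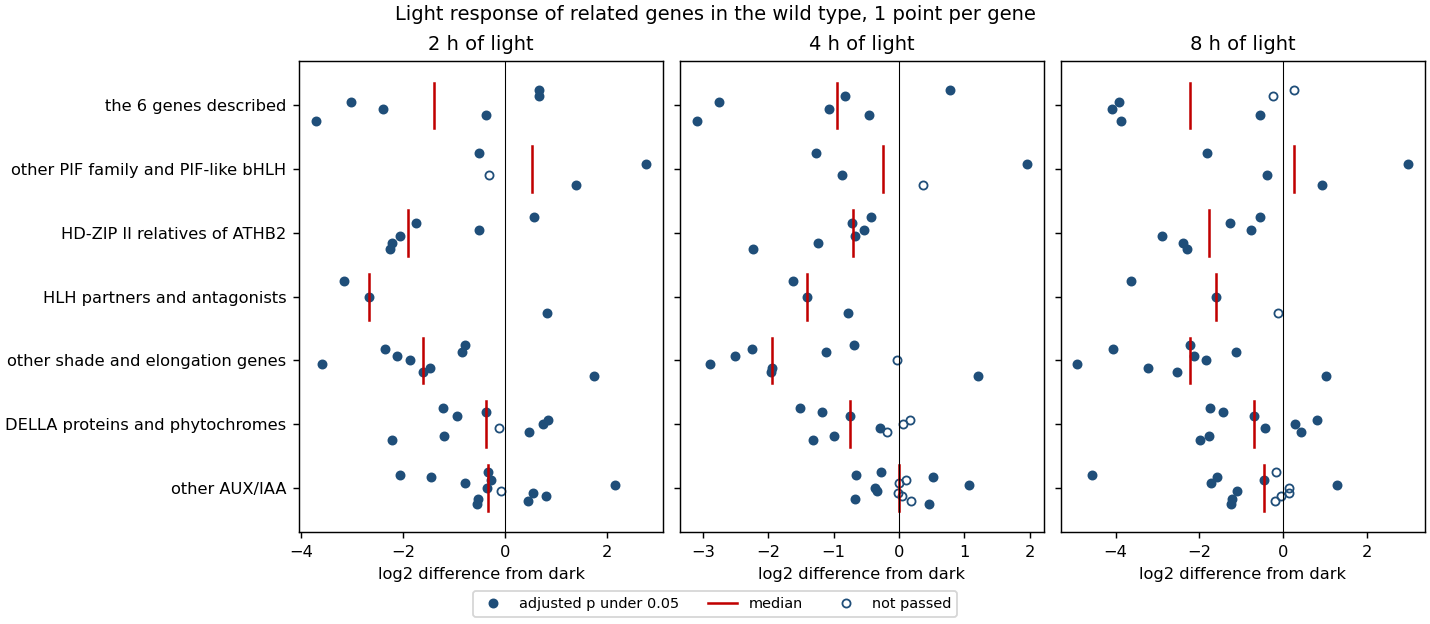
Log2 difference from dark in wild type (x axis) at 2, 4 and 8 h (panels) for the 6 genes described and for each related list (rows), 1 point per gene. Filled points passed at an adjusted p under 0.05, open points did not, and vertical lines are medians. Medians at 2 h run from -2.67 in the HLH list to 0.54 in the PIF-like list.

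In wild type at 2 h 40.5 percent of all probe sets were higher and 49 percent lower, with a median of -0.21, and the list counts that follow stand beside these shares. Among other PIF family and PIF-like bHLH genes, 2 were higher and 1 lower at 2 h in wild type, with a median of 0.54. PIF8, a member of the PIF family, rose by 2.78 ± 0.12 (adjusted p 4.9e-11, limma), and ALC, a bHLH factor of fruit opening, by 1.39 ± 0.18. From 2 to 4 h all 4 measured genes of this list (PIF6, PIF8, SPT and ALC) were below their 2 h level. Of these 3 passed as lower in jmj17-1 (23.5 percent of all probe sets) and 4 in wild type (26.8 percent). PIF8 also passed in the genotype average, 0.22 ± 0.06 higher in jmj17-1 (adjusted p 0.0446), a call lost in 16 of 25 alternatives.

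Of the HD-ZIP II relatives 5 were lower and 1 higher at 2 h in wild type (median -1.91, beside 49 percent lower and 40.5 percent higher over all probe sets). ATHB4, which acts in shade alongside ATHB2, and HAT1 fell by 2.27 ± 0.14 and 2.23 ± 0.15. HAT2, an auxin-induced relative, rose again at 4 h. It stood at -2.06 ± 0.14 at 2 h, -0.67 ± 0.14 at 4 h and -2.90 ± 0.14 at 8 h, with a rise of 1.39 ± 0.16 from 2 to 4 h (adjusted p 3.64e-06, limma). SAUR15, an auxin-induced gene of the elongation list, rose by 1.84 ± 0.22 over the same step (adjusted p 7.65e-06). Over that step in wild type 3 of the 6 HD-ZIP II relatives were higher and 1 lower. Of the 9 elongation genes 2 were higher and 3 lower, beside 20.4 percent higher and 26.8 percent lower over all probe sets. SAUR15, and these steps of HAT2, were singled out after their values were seen. HAT2 also passed in the added interaction from 4 to 8 h (0.90 ± 0.22, adjusted p 0.0473), a call lost in 17 of 25 alternatives.

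Of the HLH partners and antagonists 1 was higher and 2 lower at 2 h in wild type, beside 40.5 percent higher and 49 percent lower over all probe sets. PRE1, which frees growth-promoting bHLH factors from HLH repressors, fell by 3.17 ± 0.18, and PAR1, an atypical HLH protein that inhibits PIF4, fell by 2.67 ± 0.12. HEC1, a bHLH partner of SPT that promotes de-etiolation, was the gene whose 8 group means were most like those of PIF3 (Pearson r = 0.99 over 8 groups, among 6513 candidates). At 8 h HEC1 was at 7.43 and 7.52 in jmj17-1 and 8.33 and 8.08 in wild type. The difference of -0.73 ± 0.17 passed (adjusted p 0.0448, limma) but was lost in 15 of 25 alternatives, with adjusted p up to 0.373.

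Of the other shade and elongation genes 1 was higher and 8 lower at 2 h in wild type (median -1.61, beside 49 percent lower over all probe sets). GH3.3, an enzyme that conjugates auxin to amino acids, fell by 3.59 ± 0.15, and XTH15, a cell wall enzyme of the xyloglucan endotransglucosylase family, by 2.37 ± 0.12. At 8 h XTH15 was at 9.49 and 9.20 in jmj17-1 and 8.72 and 8.61 in wild type, 0.68 ± 0.13 higher in jmj17-1 (adjusted p 0.0192, limma). The call was lost without wild-type 8 h replicate 1 (adjusted p 0.064), without replicate 2 (adjusted p 0.204) and without jmj17-1 8 h replicate 1 (adjusted p 0.283). GH3.3 passed in the added interaction from 4 to 8 h (1.13 ± 0.23, adjusted p 0.0187), lost in 4 of 24 alternatives.

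Of the DELLA proteins and phytochromes 3 were higher and 5 lower at 2 h in wild type (median -0.37), near the shares of 40.5 percent higher and 49 percent lower over all probe sets. The DELLA growth repressors GAI and RGL3 fell by 2.21 ± 0.10 and 1.23 ± 0.15. PHYD, a phytochrome close to PHYB, was at 6.65 and 6.56 in jmj17-1 and 7.09 and 6.88 in wild type at 2 h, a difference of -0.38 ± 0.10 (adjusted p 0.0316, limma) that was lost in 6 of 24 alternatives. Of the other AUX/IAA genes 4 were higher and 8 lower at 2 h, with a median of -0.33 beside -0.21 over all probe sets, from 2.17 ± 0.10 in IAA28 to -2.07 ± 0.18 in IAA6. In the genotype comparisons, the genotype average and the interactions, no list gene other than PIF8, HAT2, HEC1, XTH15, GH3.3 and PHYD passed.

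For each of the 6 genes the 2 other loci with the closest course over the 8 group means were looked up, as a description. For PIF3 they were HEC1 and TRM28 (AT5G03670), and for PIF5 FAB1B and AAP5 (r = 0.98 for both). For HFR1 they were MYB88 and AT5G48900, for IAA19 JKD and AT3G44610, and for IAA29 IQD17 (AT4G00820) and AT2G19660, each with r of at least 0.99. For ATHB2 they were ACS5, an enzyme of ethylene synthesis, and AT4G16790, both at r = 1.00 to 2 decimals. AT4G16790 is the next protein-coding locus after ATHB2 in the TAIR10.1 gene order, and its values were dim, between 3.78 and 4.93 on the log2 scale. ACS5 was dimmer still in light, with group means between 2.69 and 3.16. The steps of JKD in wild type were 0.45 from 2 to 4 h and -1.05 from 4 to 8 h.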

How the data were processed

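Seedling RNA was measured on 18 ATH1 arrays in 8 groups. The submitters' processing notes name GCOS 1.4. Probes were summarised by RMA with quantile normalization, per the file headers, and the authors deposited linear intensity for 6847 probe sets. A second deposited table holds centred log2 values of all 22810 probe sets; 2 of its columns equal the array of their own label and 16 another; which labelling is right was not settled. The first, whose columns carry the sample titles, was used throughout, and the second only as an alternative, columns matched by equal values. Log2 intensities of all 18 arrays were fitted with 1 mean per group in limma 3.58.1 (R 4.3.3), with 18 planned comparisons and 2 added after the values were seen. Adjusted p is Benjamini-Hochberg over 6847 probe sets and the threshold 0.05. The script was tested on simulated data. Alternatives were renormalization, centring, leaving out the dimmest 40 percent, array weights, only the arrays compared, the second table, replicate number as a block, and each array left out. List genes were named if they passed in a genotype comparison or interaction or were among the 2 largest changes of their list in wild type at 2 h, and for each gene the 2 loci of highest correlation over group means. Members and lists were chosen with earlier results of these data known. Names follow the deposited table and RefSeq TAIR10.1. Figures used matplotlib 3.10.9 under Python 3.11.15.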

Additional observations from a re-analysis of the deposited data

How the results depend on the processing

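Over 67 single-gene results that passed, all 1659 recomputed values kept their direction. Of these 1575 also passed and 84 did not, those of ATHB2, HFR1, PIF5, IAA29 and list genes named in the report. The 67 include the 6 genes in jmj17-1 at 2 h against dark, the contrast the table was selected on. Their agreement there was largely fixed by that selection. Without any 1 array the number of the 6 genes that passed ranged from 0 to 1 for jmj17-1 against wild type in darkness, 0 to 1 after 2 h and 0 to 1 in the genotype average. The average count of 1 became 0 with the dimmest 40 percent left out (which removes IAA29), in the second table and with the replicate block. Same-numbered arrays of the 2 genotypes correlated at -0.0345, -0.0254 and 0.145 for the dark numbers, in their deviations from group means. At 2, 4 and 8 h the values were 0.0919, 0.0358 and 0.215. The same number gave the highest correlation at each light time and for dark replicate 3, but not for dark replicates 1 and 2. The values were low, and the numbers were not taken as pairs. With the replicate block IAA29 in the average had an adjusted p of 0.0528 (limma), against 0.0461. The calls of PIF8 in the average, HEC1 between genotypes at 8 h and HAT2 in the interaction from 4 to 8 h were also lost. Renormalizing or centring moved the median of all probe sets in wild type at 2 h against dark by -0.13, and changes are stated on the deposited scale. ATHB2 and IAA29 were dim in light (17.6 percent of probe sets dimmer for ATHB2 in wild type at 2 h). How much of that signal is array background was not tested, as no background level was at hand.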
